A study of Mus musculus with 12 samples.

Results

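Adding cisplatin to brivanib was examined by setting tumours of mice that got both drugs against tumours of mice that got brivanib alone. The members are the 6 libraries labelled with these treatments, out of 12 in the series, and the comparison ran over 14246 genes. Combination libraries 2, 3 and 4 came from tumours treated with cisplatin and brivanib, and brivanib libraries 2, 3 and 5 from tumours treated with brivanib only. A second pair of groups, cisplatin libraries 1, 2 and 3 and vehicle libraries 2, 3 and 5, gives the effect of cisplatin where brivanib was absent. The injected cells were of the mouse Lewis lung carcinoma line (LLC), which forms tumours under the skin. The hosts were C57BL/6 females aged 6 to 8 weeks, each of which got 3 M cells (M for mega) in Matrigel per flank. Drugs were put into the peritoneum in a volume of 100 μL, 2 times a week for 4 weeks, once tumours had reached 100 mm3. With 6 mice and 10 to 12 tumours per group, some mice carried a tumour on both sides, and the labels do not tie libraries to mice. The p-values below therefore measure the spread between these samples, of which some may share an animal. The dose of neither drug is known from the labels.

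Cisplatin forms platinum crosslinks in DNA, which stall replication and call up cell cycle checkpoints, and it is known to harm dividing blood cell precursors and the kidney. Brivanib blocks the kinases of VEGF and FGF receptors, which blood vessel cells need to sprout and which fibroblasts and other stromal cells also carry. A piece of flank tumour holds cancer cells together with host vessels, fibroblasts, blood and immune cells, and a change in bulk RNA cannot tell fewer cells of a type from less RNA per cell. The series title links brivanib to the DNA sensor cGAS, to chemotherapy response and to antitumour immunity.

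Values are FPKM (fragments per kilobase of transcript and per M fragments) summed per gene, at 17.161 to 30.943 M recovered fragments per library. Brivanib 5 stood apart. Ribosomal RNA-like features took 38.1% of its fragments, against 0.296% to 0.643% in the other 11 libraries. RNAs without a poly(A) tail were also high in it: 7SK RNA was at 584.4 FPKM, against 0.405 to 15.2 in the others, and histone genes summed to 789.2 FPKM, against 115.5 to 281.8. Muscle and fat markers differed among libraries of 1 group. The 20 skeletal muscle markers summed to 94.1, 29.4 and 25.5 FPKM in combination 2, 3 and 4, against 19.4, 384.6 and 322.6 FPKM in brivanib 2, 3 and 5, and each marker was above 0 somewhere in both groups. The 16 adipocyte markers summed to 177.9, 370.9 and 129.0 FPKM in the combination, where Cidea and Ucp1 were at 0, and to 77.5, 368.2 and 73.6 FPKM with brivanib. Of 10 keratinocyte markers 8 were at 0 in all combination libraries and 5 in all brivanib libraries, and their sum stayed at or below 0.359 FPKM. The labelled cell type and sex were checked against genes chosen after the data were seen. The mesenchymal filament gene Vim was at 814.2 to 1236 FPKM over the 12 libraries, while the epithelial keratin Krt8 was at most 0.222 FPKM and Krt18, Sftpc and Nkx2-1 were listed at 0 in each. Xist, the RNA that coats the inactive X chromosome in female cells, did not exceed 0.092 FPKM in any library. The Y-linked genes Ddx3y and Eif2s3y were at 1.94 to 4.15 and 1.72 to 5.03 FPKM, and Ddx3y was lower in the combination (1.94 to 2.07 FPKM) than with brivanib (3.10 to 4.15 FPKM, log2 fold change -0.67 ± 0.15, SE, adjusted p = 0.0331 by limma). The libraries with the most host muscle, brivanib 3 and 5, had Xist at 0.0227 and 0 FPKM. The female label of the hosts was thus not matched by the Xist level, and the reason was not tested.

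**Figure D1:**
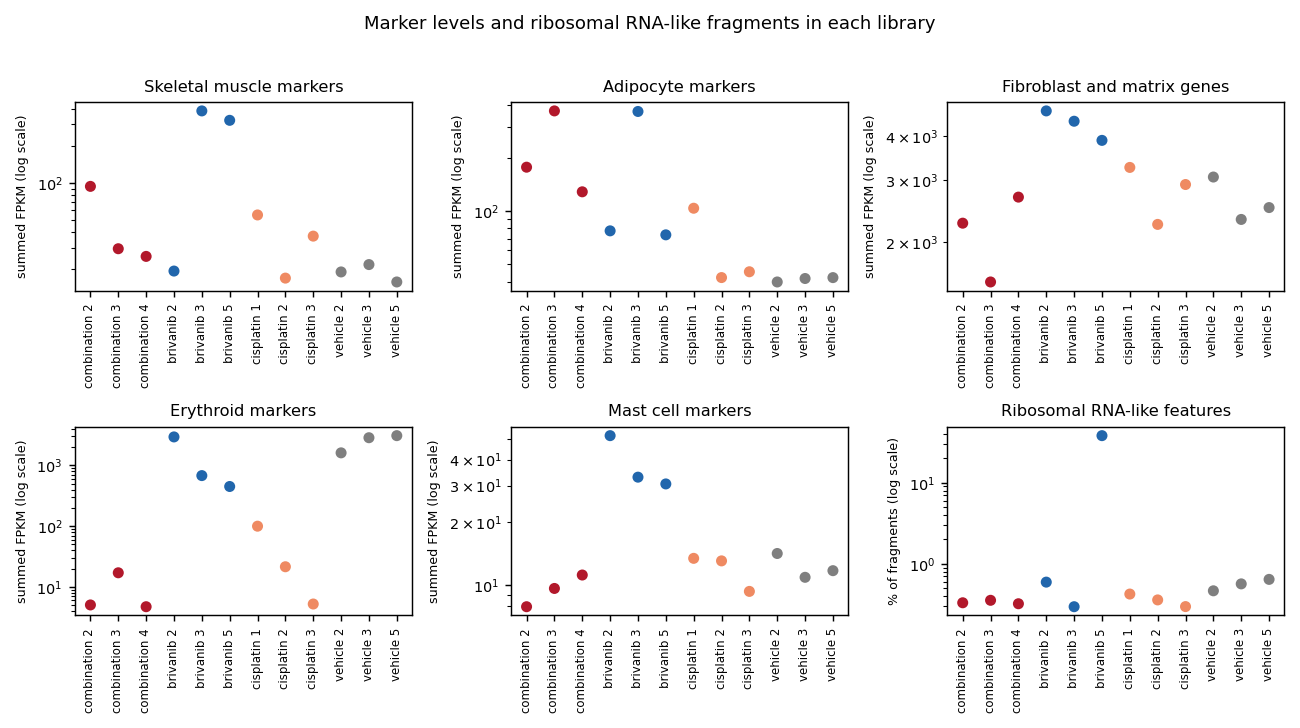
Summed FPKM of marker lists and the share of fragments from ribosomal RNA-like features in each of the 12 libraries (log scales; 1 point per library, coloured by group). Muscle marker sums were 25.5 to 94.1 FPKM in the combination and 19.4 to 384.6 FPKM with brivanib, fibroblast and matrix sums did not overlap between these groups, and brivanib 5 alone had 38.1% ribosomal RNA-like fragments.

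Combination tumours differed from brivanib tumours in 551 of 14246 genes (3.87%), by limma's test on log2(FPKM + 1) with a Benjamini-Hochberg adjusted p under 0.05. Of these, 288 were higher (2.02% of the genes tested) and 263 lower (1.85%). The rises were mostly modest, with a median log2 fold change of 0.65 and 67 genes at least 2-fold higher. The falls were steeper, with a median of -1.33 and 181 genes at least 2-fold lower. The median log2 fold change over all genes tested was 0.04. In all 551 genes the FPKM values of the 2 groups did not overlap, as was the case for 2003 genes in the higher direction (14.1%) and 1302 in the lower direction (9.14%) of all those tested. The count rests on some libraries: it was 61 without combination 3, 170 without combination 2 and 214 without brivanib 5, and 372 to 646 without each of the other 9. It was 28 with muscle and adipocyte scores as covariates. Rescaling each library to the same FPKM total, which lowers brivanib 5, shifted the median of all genes to 0.31 and left 288 genes, 153 higher and 135 lower.

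The cisplatin effect without brivanib was measured in other libraries, so the 2 effects can be set side by side. Cisplatin alone against vehicle changed 27 genes (0.19%), a count that was 0 without any vehicle library, 3 and 5 without cisplatin 3 and 1, 9 and 10 without brivanib 5 and combination 2, and 42 and 100 without brivanib 3 and 2. Among the 288 genes higher in the combination than with brivanib, 267 (92.71%) also had a positive difference between cisplatin and vehicle, with a median log2 difference of 0.34. Among the 263 lower genes, 118 (44.87%) had a negative difference between cisplatin and vehicle, with a median of 0.03. Over all genes tested, 62.04% were positive and the median was 0.07. Genes of 1 tumour vary together, so these shares carry no test. Called in both comparisons with the same sign were 15 genes, namely the 4 adult globin genes, Alas2, Wee1, mt-Nd5, mt-Tl1, Acsbg1, Dlg4, Ehd4, Nek2, Pbk, Ptgs1 and Spaca6, and 0 had opposite signs.

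**Figure D2:**
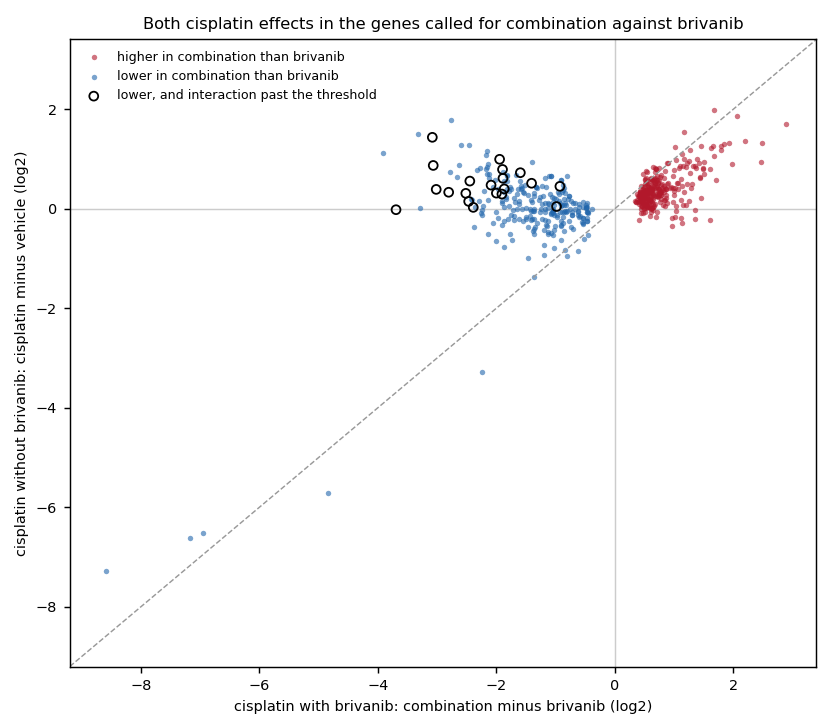
Log2 fold changes of the 551 genes called for combination against brivanib (x axis) beside those for cisplatin against vehicle (y axis), 1 point per gene, with equal effects on the dashed line. Of the 288 higher genes 267 lie above 0 on the y axis, the 4 globin genes and Alas2 lie low on both axes, and the circled points are the 20 genes whose effects differed.

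Red blood cell transcripts showed the steepest falls. Of 11 erythroid markers only 5 met the filter on mean FPKM. All 5 were lower in the combination than with brivanib, against 1.85% of all genes, with a median log2 fold change of -6.96. The 11 markers summed to 5.05, 17.1 and 4.73 FPKM in combination 2, 3 and 4. The tested genes met the filter through other groups, so this share is partly set by the filter. Hbb-bs, which encodes an adult beta chain of haemoglobin (chromosome 7, 103826534 to 103828096 on GRCm38), had 0 fragments in combination 2, 3 and 4, against 1209, 259.5 and 180.1 FPKM in brivanib 2, 3 and 5. With 3 fragments per library as the floor, it was at least 2490-fold lower (adjusted p = 0.0025), and Hbb-bt, also at 0 in the combination, was at least 943-fold lower. With these 2 genes set to that bound the median of the 5 was -7.16. The alpha globin gene Hba-a2 was at 0.557, 2.11 and 0 FPKM in the combination, against 694.9, 179.4 and 113.1 FPKM with brivanib (log2 fold change -7.16 ± 1.01, SE, adjusted p = 0.00654). Alas2, the erythroid enzyme that begins haem synthesis, was at 0.18, 0.598 and 0.218 FPKM in the combination, against 11.9, 4.25 and 2.63 FPKM with brivanib (-2.25 ± 0.42, adjusted p = 0.0177). Brivanib 2 was the highest of the 6 for each of these genes. The same 5 genes fell with cisplatin alone: Hbb-bs was at 32.9, 6.46 and 0 FPKM with cisplatin and at 655.3, 1245 and 1173 FPKM with vehicle. The paired globin genes are near-identical copies, so how fragments were split between them is uncertain. The 4 globins kept their calls without each of the 12 libraries in turn, and Alas2 lost its call without combination 2 or 3. On recovered fragments with voom (limma) 2 of the 5 passed.

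Fibroblast and matrix genes were lower as a block. Of 30 tested, 15 fell and 0 rose, against 1.85% and 2.02% of all genes, with a median log2 fold change of -1.43 and no overlap between groups in 23, against 9.14% of all genes. Their summed level was 2268, 1546 and 2688 FPKM in combination 2, 3 and 4, against 4715, 4408 and 3891 FPKM in brivanib 2, 3 and 5. Cisplatin alone did not lower them: the sums were 3262, 2250 and 2918 FPKM with cisplatin and 3064, 2324 and 2511 FPKM with vehicle, with 0 of 30 called. Brivanib 2 had the highest sum together with a muscle marker sum of 19.4 FPKM, within the vehicle range of 15.8 to 21.9 FPKM. Its adipocyte marker sum of 77.5 FPKM was above the vehicle range of 39.8 to 42.1 FPKM. The cause of the difference was not tested.

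Within the list, Pi16, Col14a1, Fbln1, Sparc and Dcn were among the firmest falls. Pi16, a marker of adventitial fibroblasts (chromosome 17, 29318877 to 29329413), was at 0.309, 0.236 and 0.802 FPKM in the combination and at 13.3, 7.49 and 11.7 FPKM with brivanib (-3.02 ± 0.29, adjusted p = 0.000671). Col14a1, a collagen that sits on fibril surfaces, was at 0.832, 0.128 and 0.673 FPKM in the combination and at 8.59, 11.3 and 8.97 FPKM with brivanib (-2.81 ± 0.29, adjusted p = 0.001). Fbln1, a fibulin of elastic fibres, fell by 2.45 and Sparc, a collagen-binding matricellular protein, by 1.79 on the log2 scale. The proteoglycan Dcn, at 43.2 to 74.9 FPKM in the combination and 131.0 to 144.7 FPKM with brivanib, fell by 1.19. These 5 kept their calls without each of the 12 libraries in turn.

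The main fibrillar collagens fell too, but less evenly. Col1a1 (chromosome 11, 94936224 to 94953042) was at 50.8, 8.94 and 49.1 FPKM in the combination, against 481.9, 226.8 and 233.4 FPKM with brivanib. The groups were far apart, yet combination 3 was well below the other 2 and the test was only just passed (-3.32 ± 0.84, adjusted p = 0.0497). Without 9 of the 12 libraries in turn Col1a1 missed the threshold, with adjusted p up to 0.162. Col1a2, the partner chain, was at -3.05 ± 0.80 and did not pass (adjusted p = 0.058). Col3a1 was at 301.2, 143.1 and 410.4 FPKM in the combination and at 882.6, 930.3 and 738.2 FPKM with brivanib (-1.70 ± 0.38, adjusted p = 0.0339). Fibronectin Fn1 fell by 0.90, and the fibroblast receptor Pdgfra was at -0.26 ± 0.19 (95% interval -0.67 to 0.16) without passing. Col3a1 lost its call without combination 2 or 3 or any brivanib library, and Fn1 without combination 2 or 3 or brivanib 5. The list held 6 falls without combination 3, 8 without combination 2, 8 without brivanib 5 and 3 with both tissue scores as covariates.

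Enzymes that mature collagen followed. Of 17 tested, 5 fell and 0 rose, against 1.85% and 2.02% of all genes, with a median of -0.57. The crosslinking lysyl oxidases Loxl1 and Loxl2 fell by 2.27 and 1.83 on the log2 scale. Loxl1 is also on the fibroblast and matrix list. Adamts2, which trims procollagen, fell by 1.56 and the prolyl hydroxylase P4ha3 by 0.93. Plod2, a lysyl hydroxylase, fell by 0.91 but missed the threshold without 10 of the 12 libraries. Outside the lists, 3 of the 15 largest falls were in secreted or secretory pathway genes of connective tissue. Tnc, a matrix protein of wound and tumour stroma (chromosome 4, 63959785 to 64047015), was at 7.21, 1.15 and 4.63 FPKM in the combination and at 37.9, 51.8 and 28.3 FPKM with brivanib (-3.08 ± 0.52, adjusted p = 0.0122). Rcn3, a calcium-binding protein of the endoplasmic reticulum, fell by 3.07 and the Wnt antagonist Sfrp2 by 2.66. Rcn3 passed without each library in turn, while Loxl1, Adamts2, P4ha3, Tnc and Sfrp2 missed the threshold without combination 3 and Loxl2 also without brivanib 2. Without combination 3 the enzyme list held 0 falls, without brivanib 2 it held 3 and with both scores 0.

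**Figure D3:**
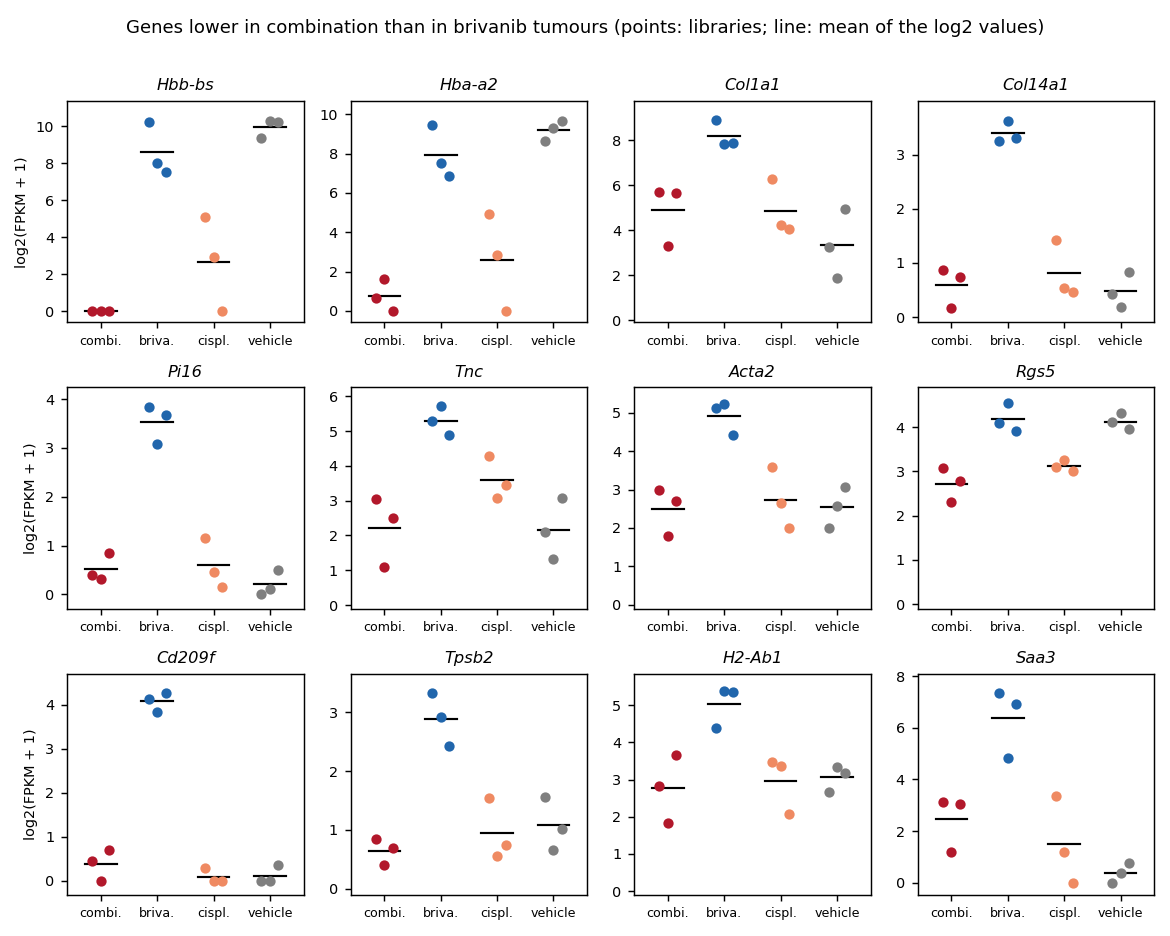
Log2(FPKM + 1) of 12 genes lower in combination than in brivanib tumours, by library in the 4 groups (line, mean of the 3 log2 values). Combination and brivanib points do not overlap in any panel, and in the cisplatin and vehicle groups the globins and Rgs5 are lower with cisplatin while Pi16, Cd209f and Col14a1 are low in both.

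Pericyte and smooth muscle genes fell as well. Of 10 tested, 5 were lower and 0 higher, against 1.85% and 2.02% of all genes, with a median of -0.78. Smooth muscle actin Acta2, also a mark of contractile fibroblasts, was at 6.90, 2.44 and 5.49 FPKM in the combination and at 34.0, 36.1 and 20.5 FPKM with brivanib (-2.44 ± 0.42, adjusted p = 0.0135). Tagln, an actin-binding protein of the same cells, fell by 2.03. Rgs5, a signalling regulator typical of pericytes, was at 7.48, 3.92 and 5.84 FPKM in the combination and at 15.97, 22.4 and 14.2 FPKM with brivanib (-1.47 ± 0.21, adjusted p = 0.00654). For Rgs5 the cisplatin libraries also lay below vehicle, at 7.58, 8.63 and 7.01 against 16.3, 18.8 and 14.4 FPKM, without passing the test (-1.0 ± 0.21, adjusted p = 0.0773). The platelet-derived growth factor receptor Pdgfrb, also on the fibroblast and matrix list, fell by 0.75 and the adhesion molecule Mcam by 0.86. Rgs5 passed without each library in turn. Acta2 and Tagln missed the threshold without combination 3, Pdgfrb without combination 2 or 3 or brivanib 3 or 5, and Mcam without 8 of the 12 libraries. Without combination 3 the list held 1 fall, without combination 2 or brivanib 3 it held 3 and with both scores 0.

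Endothelial genes had few calls. Of 19 tested, 1 fell (Tek, the angiopoietin receptor, at -0.88 ± 0.21, adjusted p = 0.043) and 0 rose. The shares of all genes were 1.85% and 2.02%, and the list median was -0.42. In 16 the difference was negative, and 5 did not overlap in the lower direction, against 9.14% of all genes. The median was -0.18 without combination 4, -0.28 without brivanib 3 and -0.60 without brivanib 5. Tek missed the threshold without 11 of the 12 libraries. The VEGF receptors, which brivanib inhibits, did not pass: Kdr was at 3.54, 3.22 and 1.99 FPKM in the combination and at 4.0, 6.60 and 3.82 FPKM with brivanib (-0.56 ± 0.21, 95% interval -1.03 to -0.09, adjusted p = 0.157), and Flt1 was at -0.23 (-0.77 to 0.31). Fgfr1, also a target of the drug, was at 0.20 (-0.14 to 0.53). The growth factor Vegfa was at 18.9, 18.8 and 15.01 FPKM in the combination, within the brivanib range of 13.4 to 43.7 FPKM, and Pgf at -0.92 (-2.22 to 0.38) did not pass either. Of the lymphatic genes only Lyve1 and Pdpn were tested, and both fell, by 2.16 and 1.90 on the log2 scale. Pdpn is also made by activated fibroblasts and Lyve1 by some resident macrophages. Pdpn passed without each library, and Lyve1 missed the threshold without 8 of the 12.

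Genes of mast cells, which sit in connective tissue, fell too. Of 7 tested, 4 were lower and 0 higher, against 1.85% and 2.02% of all genes, with a median of -1.90. The tryptase Tpsb2 was at 0.806, 0.322 and 0.617 FPKM in the combination, against 9.08, 6.54 and 4.36 FPKM with brivanib (-2.24 ± 0.32, adjusted p = 0.00654). The chymases Cma1 and Mcpt4 fell by 2.24 and 2.37, and the carboxypeptidase Cpa3 by 1.90. Cisplatin and vehicle libraries were alike for Tpsb2, at 0.476 to 1.90 and 0.583 to 1.96 FPKM. Tpsb2 passed without each library in turn. Without combination 3 the list held only that 1 fall, without combination 2 it held 2 and with both scores 0.

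Of 20 macrophage genes tested, 2 fell and 1 rose, against 1.85% and 2.02% of all genes, with a median of -0.95. In 18 the difference was negative, and 11 did not overlap in the lower direction, against 9.14% of all genes. The falls were in the C-type lectins Cd209f and Cd209g, which mark some tissue-resident macrophages in mice. Cd209f (chromosome 8, 4102787 to 4105835) was at 0.374, 0 and 0.624 FPKM in the combination and at 16.6, 13.3 and 18.3 FPKM with brivanib (-3.69 ± 0.22, adjusted p = 1.84e-05). This was the smallest adjusted p of the comparison, and both lectins passed without each library in turn. In cisplatin and vehicle tumours Cd209f did not exceed 0.277 FPKM, and Cd209g was at 0 in all vehicle libraries. Cd209f thus met the filter on mean FPKM only through the brivanib libraries. Its low p and its calls with libraries left out are no independent support for a fall. The rise was in Gpnmb, a glycoprotein of lipid-laden macrophages that melanocytic and other tumour cells can also make, at 263.9, 341 and 256.5 FPKM in the combination and 169.7, 75.9 and 89.8 FPKM with brivanib (1.43 ± 0.24, adjusted p = 0.0122). General macrophage genes did not pass: Adgre1 (F4/80) was at -1.59 ± 0.44 (adjusted p = 0.0712), the complement gene C1qa at -2.02 ± 0.59 (adjusted p = 0.0793) and the scavenger receptor Cd163 at -0.88 ± 0.44 (adjusted p = 0.269). Combination 4 was the highest of its group for C1qa, at 60.2 FPKM, and without it 10 of the 20 genes fell. Gpnmb missed the threshold without combination 3.

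MHC class II genes, which present antigen to CD4 T cells, had 2 falls and 0 rises among 8 tested. The shares of all genes were 1.85% and 2.02%, and the list median was -1.42. H2-Ab1 was at 6.15, 2.56 and 11.7 FPKM in the combination and at 19.8, 41.0 and 40.0 FPKM with brivanib (-2.26 ± 0.47, adjusted p = 0.0245). H2-Eb1 fell by 2.15, and the invariant chain Cd74 was at -2.27 ± 0.59 without passing (adjusted p = 0.0534). Both calls were lost without combination 2 or 3 or brivanib 3 or 5. In brivanib 2, with few muscle transcripts, H2-Ab1 was at 19.8 FPKM, and in brivanib 3 and 5, with many, at 41.0 and 40.0 FPKM. In combination 2, 3 and 4 muscle markers summed to 94.1, 29.4 and 25.5 FPKM, and H2-Ab1, at 6.15, 2.56 and 11.7 FPKM, was not in that order. Whether muscle content bears on these levels was not tested. With the skeletal muscle score as a covariate 0 of the 8 passed and the median was -1.28, and with both tissue scores 0 passed and the median was -1.44.

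Some secreted signals of inflammation fell. Of 21 chemokines, 4 fell and 0 rose, against 1.85% and 2.02% of all genes, with a median of -0.55. Ccl12, a monocyte attractant of mice, was at 15.3, 6.4 and 11.9 FPKM in the combination and at 39.9, 29.2 and 50.02 FPKM with brivanib (-1.78 ± 0.27, adjusted p = 0.00905). Ccl11, the eosinophil attractant eotaxin, fell by 1.54, Cxcl14 by 2.77 and the neutrophil attractant Cxcl5 by 2.62. Of 10 inflammatory cytokines 1 fell, the alarmin Il33, by 1.73. Ccl12 passed without each library in turn, Cxcl14 missed the threshold without combination 2 or 3 or brivanib 2 or 5, Ccl11 without 6 libraries, Cxcl5 without 9 and Il33 without 11. Without combination 2, combination 3, brivanib 2 or brivanib 5 the chemokine list held 1 fall each, and with both scores 0.

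Acute phase and complement genes had 5 falls and 1 rise among 14 tested, against 1.85% and 2.02% of all genes, with a median of -0.49. Saa3, a serum amyloid made in inflamed tissue (chromosome 7, 46711998 to 46715700), was at 7.71, 1.27 and 7.33 FPKM in the combination, against 161.8, 27.3 and 119.8 FPKM with brivanib (-3.91 ± 0.84, adjusted p = 0.027). Brivanib 3 was far below the other brivanib libraries, and all were above the combination. Lbp, which hands bacterial lipopolysaccharide to its receptor, fell by 2.09, and the complement genes Cfb, C3 and C4b by 2.15, 2.17 and 2.23. Outside the list, the pentraxin Ptx3 fell by 2.78. The rise was in Cp, the copper-carrying ferroxidase ceruloplasmin, which was at 34.6, 53.5 and 54.2 FPKM in the combination and at 13.4, 14.8 and 19.9 FPKM with brivanib (1.501 ± 0.25, adjusted p = 0.0122). Cp also lay higher in all cisplatin libraries (25.6 to 52.5 FPKM) than in vehicle (16.8 to 22.4 FPKM). Lbp passed without each library in turn, Cp and Cfb missed the threshold without combination 3, Saa3 without combination 2 or 3 or brivanib 2 or 5, C3 without combination 2 or 3 or any brivanib library, C4b without 8 libraries and Ptx3 without 9. The list held 1 fall without combination 3, 2 without combination 2, brivanib 2 or brivanib 5, 3 without brivanib 3 and 0 with both scores.

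Among rises, genes induced by glucocorticoids stood out. These steroids enter cells and bind a receptor that acts as a transcription factor on response elements in DNA. Of 17 such genes, 6 rose and 0 fell, against 2.02% and 1.85% of all genes, with a median of 0.63. Members of the clock feedback loop, in which PER and CRY proteins repress their own E-box-driven transcription, rose in part: of 15 tested, 3 rose (Per1, Per2 and Cry2), 0 fell and the median was 0.08. Per1 is on both lists. To show the DNA in front of 2 of these genes, RefSeq promoter windows (GRCm38.p6, 250 bases before to 50 after a start) were searched on both strands for the palindrome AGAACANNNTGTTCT, a full glucocorticoid response element, and for the E-box CACGTG. Capitals mark the palindrome in the Sgk1 window (chr10:21993640-21993939, plus strand) and the E-box in the Per1 window (chr11:69098699-69098998, plus strand). The Sgk1 window also holds an E-box near its 5′ end, left in lower case.
Sgk1: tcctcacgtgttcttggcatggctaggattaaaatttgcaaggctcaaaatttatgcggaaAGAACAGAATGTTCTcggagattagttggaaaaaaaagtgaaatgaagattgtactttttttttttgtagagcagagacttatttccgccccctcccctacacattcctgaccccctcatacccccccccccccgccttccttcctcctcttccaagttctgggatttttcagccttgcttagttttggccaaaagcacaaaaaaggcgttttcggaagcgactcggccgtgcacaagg
Per1: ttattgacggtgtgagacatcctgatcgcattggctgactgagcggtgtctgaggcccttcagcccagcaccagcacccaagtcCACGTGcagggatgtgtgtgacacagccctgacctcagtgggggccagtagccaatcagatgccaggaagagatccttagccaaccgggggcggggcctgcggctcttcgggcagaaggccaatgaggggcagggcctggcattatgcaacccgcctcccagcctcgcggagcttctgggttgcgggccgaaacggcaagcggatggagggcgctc

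The palindrome was found in 3 of 32851 promoter windows (0.00913%) and in 1 of 14 windows of the 6 glucocorticoid genes called higher, the one shown for Sgk1 (bases 62 to 76), which is 1 of 6 windows listed for that gene. The E-box was found in 2349 windows (7.15%), in 3 of the same 14, and in 1 of the 3 windows matched to 2 of the called clock genes, that of Per1 (bases 85 to 90). A match of letters is a description and not a bound site.

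Tsc22d3, which encodes the steroid-induced leucine zipper protein GILZ (chromosome X, 140539528 to 140600659), was at 64.8, 216.2 and 84.7 FPKM in the combination and at 16.4, 20.2 and 17.9 FPKM with brivanib (2.49 ± 0.46, adjusted p = 0.0167). Combination 3 was far above the other 2, and all 3 were above every brivanib library. Per1, a clock repressor that glucocorticoids also induce (chromosome 11, 69095217 to 69109960), was even within groups: 28.3, 35.1 and 31.4 FPKM in the combination, against 9.79, 6.44 and 8.27 FPKM with brivanib (1.84 ± 0.28, adjusted p = 0.00905). Fkbp5, a chaperone partner that dampens the receptor, was at 89.7, 139.6 and 87.6 FPKM in the combination and at 35.3, 44.1 and 38.3 FPKM with brivanib (1.38 ± 0.23, adjusted p = 0.0122). The kinase Sgk1 (chromosome 10, 21882184 to 21999903) was at 88.8, 143.9 and 89.3 FPKM in the combination and at 54.9, 39.2 and 40.0 FPKM with brivanib (1.22 ± 0.22, adjusted p = 0.0143). In these genes combination 3 was the highest of the combination and brivanib libraries.

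The transcription factor Klf9 rose by 1.34 and the kinase Map3k6 by 0.63 on the log2 scale. The clock genes Per2 and Cry2 rose by 0.74 and 0.57. The cisplatin libraries showed the same order. Per1 was at 32.4, 17.8 and 37.4 FPKM with cisplatin and at 8.48, 16.2 and 8.92 FPKM with vehicle (1.30 ± 0.28, adjusted p = 0.0827), and Fkbp5 at 93.8, 56.4 and 112.7 against 42.4, 43.1 and 39.7 FPKM (1.0 ± 0.23, adjusted p = 0.0981). Neither passed the test there. Per1 kept its call against brivanib without each library in turn. Fkbp5 missed the threshold without combination 3, Tsc22d3 and Sgk1 without combination 3 or brivanib 5, Klf9 without combination 2 or 3 or brivanib 5, and Map3k6 without 10 of the 12 libraries. Per2 missed it without combination 2 or 3 or brivanib 2, and Cry2 without combination 2 or 3 or brivanib 3. The glucocorticoid list held 1 rise without combination 3, 2 without brivanib 5, 4 without combination 2 and 0 with both tissue scores. Its median was 0.28 without combination 3, 0.22 without brivanib 3, 0.11 with the muscle score and 0.30 with both scores. The clock list held 1 rise without combination 2 or 3 and 0 with both scores.

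**Figure D4:**
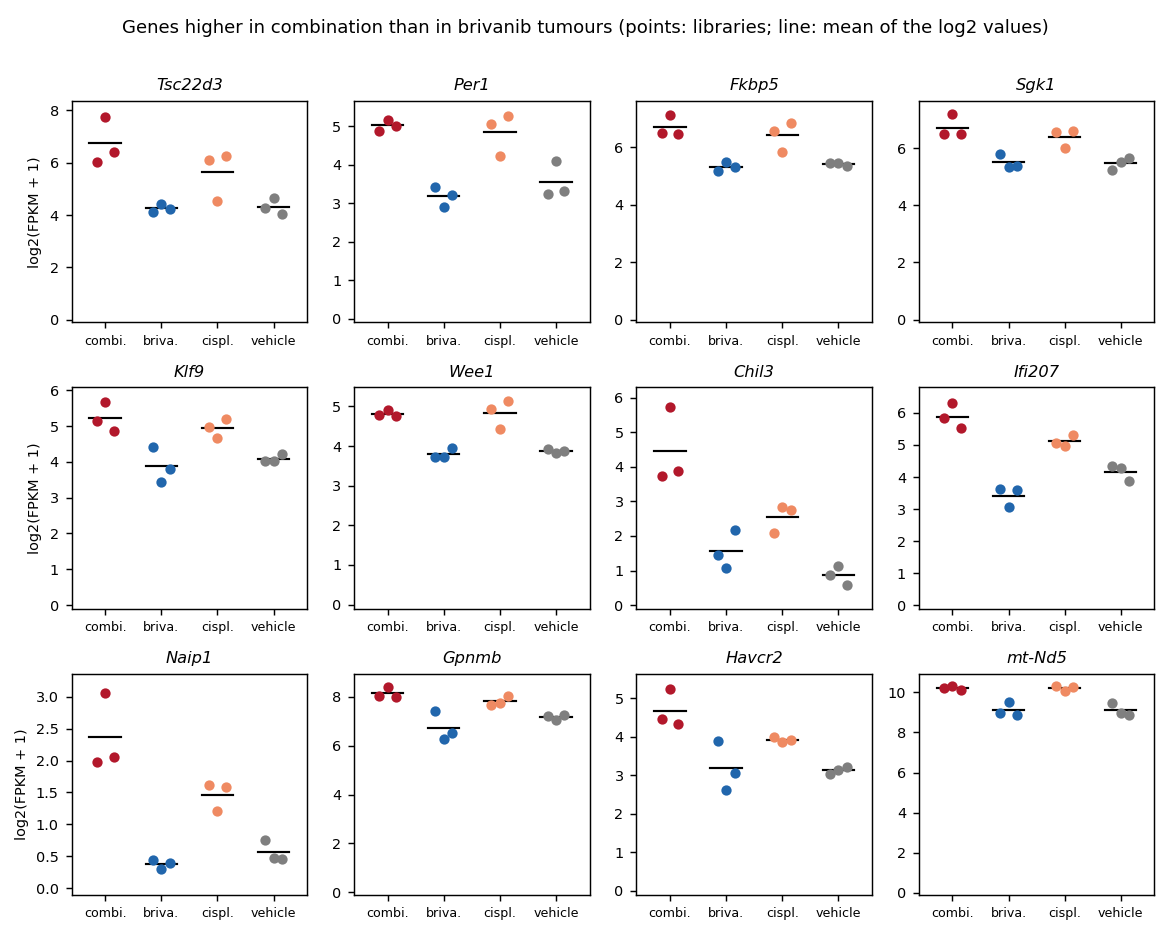
Log2(FPKM + 1) of 12 genes higher in combination than in brivanib tumours, by library in the 4 groups (line, mean of the 3 log2 values). Combination points lie above all brivanib points in each panel, and the mean of the cisplatin libraries also lies above that of vehicle in each.

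Ifi207, of the IFI200 family of nucleic acid-binding proteins (chromosome 1, 173723427 to 173741747), was at 55.6, 78.0 and 44.6 FPKM in the combination and at 11.3, 7.28 and 11.1 FPKM with brivanib (2.46 ± 0.22, adjusted p = 0.000671). Its relative Ifi204, a smaller change, was at 51.0, 58.7 and 27.5 FPKM in the combination, against 27.3, 19.2 and 17.5 FPKM with brivanib (1.02 ± 0.25, adjusted p = 0.0442). The 2 lie in a cluster of similar genes, which makes the split of fragments between them uncertain. Naip1, a sensor that starts an inflammasome, rose by 1.98 on the log2 scale, with 2.92 to 7.35 FPKM in the combination and 0.238 to 0.356 FPKM with brivanib. Chil3, which encodes the chitinase-like protein Ym1 of macrophages, was at 12.3, 52.2 and 13.8 FPKM in the combination and at 1.72, 1.11 and 3.50 FPKM with brivanib (2.89 ± 0.46, adjusted p = 0.011). Scara5, a ferritin receptor, rose by 1.80.

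Havcr2, the inhibitory receptor TIM-3 of T cells and myeloid cells, was at 20.9, 36.6 and 19.03 FPKM in the combination and at 13.7, 5.18 and 7.29 FPKM with brivanib (1.49 ± 0.28, adjusted p = 0.0187). It was the 1 rise among 18 immune checkpoint genes, of which 1 fell, the ATP-degrading enzyme Entpd1, by 0.62. Klrb1c (NK1.1), a natural killer cell receptor, rose by 1.11, the 1 call among 14 cytotoxic and NK cell genes. Of all genes 2.02% rose and 1.85% fell. The T cell and dendritic cell lists had 0 of 8 and 0 of 7 calls. Ifi207, Naip1, Chil3 and Scara5 passed without each library in turn. Havcr2 missed the threshold without combination 3 or brivanib 5, Klrb1c without 8 of the 12 libraries, Entpd1 without 8 and Ifi204 without 10. The remaining genes among the 15 largest rises were Tent5b, a poly(A) polymerase, at 1.79, the kinase Sgk2 at 1.60, Foxred2 at 1.51, Hrct1 at 1.49, the mTOR inhibitor Deptor at 1.44 and Tmem252 at 1.43. Of these, Foxred2 missed the threshold without combination 3, Tmem252 without combination 3 or brivanib 5, Hrct1 without combination 2 or 3 or brivanib 5, Tent5b and Deptor without 9 libraries each, and Sgk2 without 10.

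MHC class I genes, which show peptides to CD8 T cells, had 4 rises and 1 fall among 16 tested. The shares of all genes were 2.02% and 1.85%, and the list median was 0.37. The rises were in Nlrc5, the transactivator of this pathway (11.8, 8.48 and 9.29 FPKM in the combination, against 5.17, 5.52 and 4.24 FPKM with brivanib), in the peptide transporter genes Tap1 and Tap2 (0.73 and 0.66), and in H2-T22 (0.56). The fall was in Psmb8, an immunoproteasome subunit (-0.81 ± 0.20, adjusted p = 0.0427). Of 35 type I interferon response genes, 1 rose (Ifit2, by 0.73), 0 fell and the median was 0.38. Of 23 interferon-gamma response genes 1 rose (Nlrc5), 0 fell and the median was 0.34. Single calls in lists of this size are close to the 2.02% of all genes. The type I median was 0.16 without combination 2 or brivanib 5, where 1 gene, Ifi27l2a, fell and 0 rose, and with brivanib 3 left out 5 genes rose and with combination 4 left out 3. Tap1 missed the threshold without 10 of the 12 libraries and Psmb8 without 8. Nlrc5 and Tap2 missed it without 5 each, H2-T22 without 4 and Ifit2 without 3. The calls of these 6 genes were each lost without combination 3 and without brivanib 5. The class I list then held 0 calls, and 1 without combination 2 or brivanib 2.

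The genes of the route from cytosolic DNA to interferon, which the series title names, did not pass the test, apart from Ifi204. Cgas, which encodes the sensor, was below the level tested, at 0.227, 0.172 and 0.521 FPKM in the combination and at 0.423, 0.912 and 0.658 FPKM with brivanib. Tmem173, which encodes the adaptor STING, was at 19.8, 23.7 and 23.1 FPKM in the combination and at 19.7, 24.7 and 20.9 FPKM with brivanib, so the groups overlapped (0.03, 95% interval -0.22 to 0.28, adjusted p = 0.898). The kinase Tbk1 was at 0.12 (-0.09 to 0.33), and the transcription factors Irf3 and Irf7 at -0.02 (-0.31 to 0.27) and 0.26 (-0.31 to 0.84). Ifnb1, the interferon itself, was at 0, 0 and 0.148 FPKM in the combination and at 0, 0.119 and 0 FPKM with brivanib. Of its targets and T cell attractants, Cxcl10 was at 0.02 (-0.58 to 0.62), Cxcl9 at -0.58 (-1.10 to -0.06) and Ccl5 at 1.01 (0.34 to 1.68), and none passed (adjusted p = 0.977, 0.181 and 0.0904). The checkpoint ligand Cd274 (PD-L1) was at 0.10 (-0.47 to 0.66) and the granzyme gene Gzmb at 0.14 (-0.67 to 0.95). Ifi204 was the 1 call among 12 DNA sensing genes tested, against 2.02% of all genes called higher.

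Transcripts of the mitochondrial genome were higher. All 13 protein-coding genes had a positive difference, 12 did not overlap (against 14.1% of all genes), and 3 passed the test (against 2.02%), with a median of 0.69. mt-Nd5, a subunit of respiratory complex I, was at 1206, 1293 and 1121 FPKM in the combination and at 494.0, 725.5 and 464.8 FPKM with brivanib (1.13 ± 0.19, adjusted p = 0.0122). mt-Nd1 and mt-Nd6 of the same complex rose by 1.02 and 1.27. The cisplatin libraries held 1062 to 1256 FPKM of mt-Nd5 and the vehicle libraries 463.6 to 698.4. Of 22 mitochondrial transfer RNA genes tested 9 rose and 0 fell, against 2.02% and 1.85% of all genes, although such short RNAs have uncertain FPKM values. Of 20 fatty acid oxidation genes in the nucleus 2 rose: Cpt1a, which brings fatty acids into mitochondria, at 62.7, 97.8 and 68.0 FPKM in the combination and at 36.0, 32.1 and 23.8 FPKM with brivanib (1.28 ± 0.22, adjusted p = 0.0126), and the carnitine carrier Slc25a20, by 0.72. Without combination 3 none of these 5 nuclear and complex I genes passed. mt-Nd1 and Slc25a20 also missed the threshold without combination 2, and Slc25a20 without brivanib 2 or 5. Of the 13 mitochondrial genes, 6 passed without brivanib 3, 3 without brivanib 5 and 2 without combination 2. With the muscle score as a covariate 11 passed, with both scores 1 and with the replicate block 0. The median was 0.46 without brivanib 2 and 1.047 with the muscle score.

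Genes of the DNA damage response changed in few cases. Wee1, the kinase that holds cells before mitosis (chromosome 7, 110122046 to 110143286), was at 26.5, 28.9 and 26.2 FPKM in the combination and at 12.2, 12.1 and 14.4 FPKM with brivanib (1.02 ± 0.15, adjusted p = 0.00905), and passed without each library in turn. It was the 1 call among 19 checkpoint genes, against 2.02% of all genes called higher. Cisplatin alone gave a like difference, with 29.8, 20.7 and 34.4 FPKM against 14.2, 13.2 and 13.6 FPKM in vehicle (0.97 ± 0.15, adjusted p = 0.0385). Of 40 crosslink repair genes 1 rose, Brca1, by 0.53, and of 40 proliferation genes 1 rose, the spindle midzone protein Prc1, by 0.51. Both shares, 1 of 40, are close to the 2.02% of all genes. The proliferation median was 0.23, with 12 of 40 not overlapping in the higher direction, against 14.1% of all genes, and Mki67 was at -0.05 (-0.40 to 0.30). Brca1 missed the threshold without 9 and Prc1 without 7 of the 12 libraries.

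The p53 targets had 0 calls among 28 tested and a median of 0.24. The cell cycle inhibitor Cdkn1a was at 32.6, 43.1 and 38.3 FPKM in the combination and at 39.8, 15.03 and 32.9 FPKM with brivanib (0.46, -0.27 to 1.2016), and Mdm2, the p53 ubiquitin ligase, was at 0.27 (-0.09 to 0.63). The repair nuclease subunit Ercc1 was at -0.09 (-0.35 to 0.16) and the checkpoint kinase Chek1 at 0.08 (-0.30 to 0.46). Among 15 platinum and copper transport genes 1 rose, the drug efflux pump gene Abcb1b, at 13.2, 15.7 and 13.3 FPKM in the combination and at 9.21, 10.0 and 9.22 FPKM with brivanib (0.52 ± 0.13, adjusted p = 0.0424). It missed the threshold without 9 of the 12 libraries. Of all genes 2.02% were called higher. The copper transporter Slc31a1, which can carry platinum drugs into cells, was at 0.09 (-0.12 to 0.31). Lrrc8d, of the volume-regulated anion channel, was at 7.56, 6.07 and 7.63 FPKM in the combination and at 8.94, 5.09 and 11.4 FPKM with brivanib (-0.18, -0.90 to 0.55), beside 20.2, 23.4 and 12.2 FPKM with cisplatin and 2.96, 2.61 and 6.86 FPKM with vehicle. The difference between the 2 cisplatin effects on Lrrc8d did not pass the interaction test given below (-2.16 ± 0.47, adjusted p = 0.109).

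Further lists had few calls, beside 2.02% of all genes higher and 1.85% lower. In the TGF-beta list of 21 genes the receptor Tgfbr1 and the latency protein Ltbp1 rose, by 0.52 and 0.70, and the other receptor, Tgfbr2, fell by 0.74. The unfolded protein response had 1 fall of 22, the chaperone Pdia4, by 0.60, and immediate early genes 1 fall of 24, Egr2, by 0.72. Of these 5 genes each missed the threshold without combination 3, and Pdia4 without that library only. Tgfbr1 missed it also without combination 2 or brivanib 5, Tgfbr2 without combination 2, and Ltbp1 and Egr2 without 8 libraries each. Hypoxia and glycolysis genes (33), NRF2 and metallothionein genes (20), neutrophil markers (11) and ribosomal protein genes (30) had 0 calls. Their medians were -0.44, 0.09, -0.45 and -0.14 in that order. Of the hypoxia and glycolysis genes 28 had a negative difference and 5 a positive one. The skeletal muscle list had 0 calls of 13 with a median of -2.08, and the adipocyte list 0 of 11 with a median of 0.35.

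**Figure D5:**
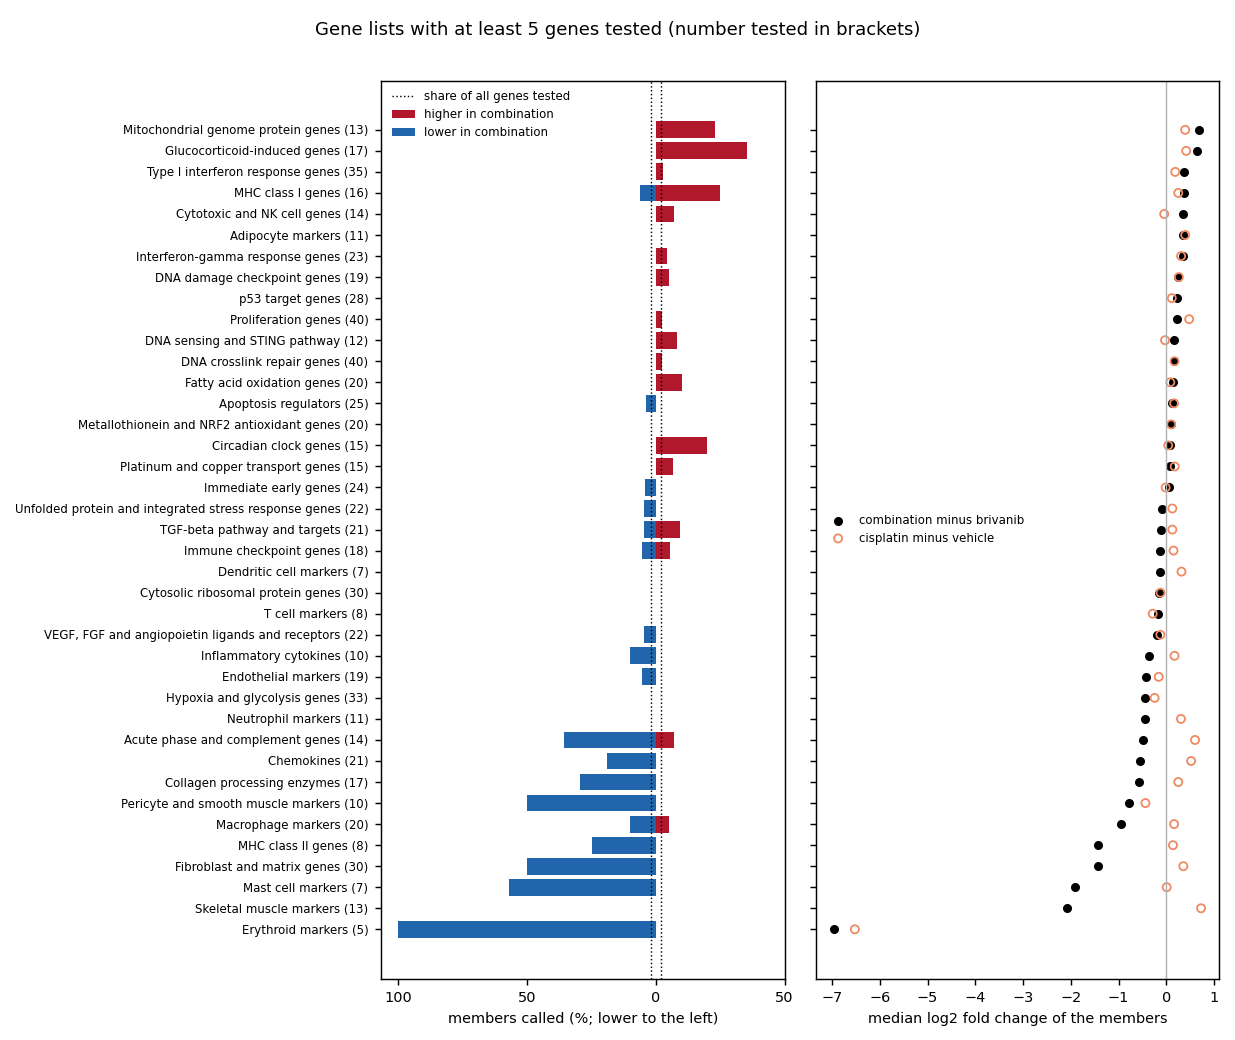
Gene lists with at least 5 genes tested: share of members called higher or lower in combination than in brivanib tumours (left, dotted lines at 2.02% and 1.85% of all genes) and the lists' median log2 fold changes (right, black), beside those of cisplatin against vehicle (open circles). Erythroid markers lie low for both, while mast cell, fibroblast and MHC class II lists lie low with brivanib present and near or above 0 without it.

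Whether cisplatin acted differently with and without brivanib was tested as an interaction, the difference between the 2 cisplatin effects. It passed in 20 genes (0.14%), all with a more negative effect when brivanib was present, and all 20 were among the 263 genes lower in the combination than with brivanib. At an unadjusted p under 0.05 there were 1430. The 5 largest were Tnc (-4.51 ± 0.74, adjusted p = 0.0443), Rcn3 (-3.93 ± 0.52, adjusted p = 0.0138), Cd209f (-3.67 ± 0.31, adjusted p = 0.000939), Pi16 (-3.40 ± 0.41, adjusted p = 0.0129) and Col14a1 (-3.13 ± 0.41, adjusted p = 0.0129). Tnc was at 18.5, 7.37 and 9.98 FPKM with cisplatin and at 3.32, 1.499 and 7.42 FPKM with vehicle, and these groups overlapped and did not pass the test (1.43 ± 0.52, adjusted p = 0.237). Pi16 was at 1.22, 0.378 and 0.116 FPKM with cisplatin and at 0, 0.0768 and 0.418 FPKM with vehicle. For Pi16, Cd209f and Col14a1 both groups without brivanib were low, which left little room for a fall with cisplatin alone. The count was 0 on recovered fragments with voom (limma) and 0 with both tissue scores, 1 without vehicle 3, 7 without vehicle 2, 8 without brivanib 5, 12 without cisplatin 1 and 13 without combination 3 or brivanib 2.

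Srsf1, a splicing factor, was also among the 20 and shows a limit of summed FPKM. It was at 44.3, 40.9 and 36.5 FPKM in the combination and at 80.6, 86.3 and 76.7 FPKM with brivanib (-0.99 ± 0.09, adjusted p = 0.000671). Its fragments overlapped between the groups, at 4417, 2371 and 2025 in the combination and 3478, 4602 and 3728 with brivanib. A transcript of 645 bases carried most of the FPKM difference, at 3.41, 15.9 and 7.92 FPKM in the combination and at 48.6, 49.9 and 44.5 FPKM with brivanib, while the transcript of 5362 bases was at 35.0, 14.3 and 16.6 against 19.9, 30.2 and 25.2 FPKM. Of the 551 called genes, 286 of the 288 higher and 259 of the 263 lower also had no overlap in fragments per M. Here M counts fragments outside ribosomal RNA-like features.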

How the data were processed

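RNA of 12 tumours was sequenced on a BGISEQ-500 and expression was estimated with RSEM after Bowtie2, per the labels' design text. The submitters' processing notes give Bowtie2 2.2.5 and RSEM 1.2.12, also name HISAT and Bowtie, and give the genome build as mm9, against mm10 in the design text. The deposited FPKM values are per transcript, scaled by the authors, and their coordinates are those of GRCm38. They were summed to 53801 genes, and genes with a mean FPKM of at least 1 over the 12 labelled libraries were tested (14246). A gene that was high in the brivanib libraries only could pass this filter through them. Of the per-sample columns, 1 had no label and was not used. Whole fragments were recovered from the FPKM steps (100% of values up to 100 fragments whole within 0.01). The log2(FPKM + 1) values, a scale that understates changes of low genes, were fitted with limma 3.58.1 (R 4.3.3) as 1 mean per group of the 12 libraries. This left 8 residual degrees of freedom. The variances were moderated along a trend with the mean, and two-sided p-values were adjusted over the genes tested by Benjamini and Hochberg's method (threshold 0.05). Errors are standard errors of the log2 fold change, and intervals are 95% intervals from the same fit. Figures used matplotlib. The procedure was tested on simulated data. The simulation gave all genes the same dispersion and no differences in tissue content, so it does not speak to the dependence on single libraries. The members, gene lists and tests were chosen with earlier results of these data known. Genes named are the 15 largest changes in each direction among called genes without overlap, up to 4 members of a list by the moderated statistic, a fixed panel, and the 5 largest interactions. Genes named beyond these (Xist, the Y-linked and tumour cell marker genes, Alas2, C1qa, Cd163, Col1a2, Col3a1, Dcn, Fn1, Map3k6, Mcam, Pdgfra, Plod2, Srsf1, Tap1 and those shared with the effect of cisplatin alone) were chosen after their values were seen. The replicate numbers 2 and 3 were shared by both groups. Deviations from group means correlated at -0.077 and -0.157 between same-numbered libraries. The numbers were not taken as pairs, although 2 such correlations cannot exclude a pairing or a shared batch. The alternatives were other pseudocounts, filters, scalings, covariates, weights, a replicate block, voom on recovered fragments and each library left out. Of the genes called, 1 is not reported here.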

Additional observations from a re-analysis of the deposited data

Results flagged for a closer look

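The effect of cisplatin with brivanib differed from its effect without brivanib, by the interaction test in limma at an adjusted p under 0.05, in 20 genes. Each value below is that difference on the log2 scale, and a negative value means that combination minus brivanib was lower than cisplatin minus vehicle. Pi16, Cd209f and Col14a1 were low in both groups without brivanib, and Cd209g was at 0 in all vehicle libraries. In these genes there was little or no room for a fall with cisplatin alone. Matrix and secreted proteins of connective tissue gave Tnc -4.51, Pi16 -3.40, Col14a1 -3.13, Fbln1 -3.00, Fndc1 -2.82, Clec3b -2.61 and Srpx2 -2.50. The unnamed gene model 8030451A03Rik was at -2.94. Enzymes and proteins of the secretory pathway gave Rcn3 -3.93, Adam12 -2.20 and the prolyl hydroxylase P4ha3 -1.38. Membrane proteins gave the podoplanin gene Pdpn -2.68, Ptgfrn -2.32, the collagen-binding receptor Antxr1 -2.31 and the growth arrest gene Gas1 -1.92. The resident macrophage lectins Cd209f and Cd209g were at -3.67 and -2.42, the lipopolysaccharide-binding protein Lbp at -2.56 and Maged2 at -2.26. Srsf1 was at -1.03, where the value depends on how fragments were divided between its isoforms.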

How the results depend on the processing

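The 551 genes called between combination and brivanib tumours numbered 396 to 636 with a pseudocount of 0.1 or 0.5, no filter, rescaling without ribosomal RNA-like features, median-of-ratios or quantile scaling, no mean-variance trend, either tissue score alone, or voom on recovered fragments (added after the data were seen, since the planned count test was not run on FPKM values). They numbered 317 at a mean FPKM of at least 5, 288 with equal FPKM totals, 138 in a fit of the 6 libraries only, 1077 with sample weights and 28 with both tissue scores. Leaving out 1 library gave 61 to 646. With a replicate block 168 genes passed. What the replicate numbers stand for is not known. Same-numbered deviations did not correlate positively for the 2 shared numbers, which cannot exclude a pairing or a shared batch. The 20 interaction genes numbered 0 with a pseudocount of 0.1, 8 with 0.5, 2 at a mean FPKM of at least 5, 13 without ribosomal RNA-like features, 45 with equal totals, 33 without the trend, 35 with sample weights, 1 with the muscle score, 0 with both scores, 1 with the replicate block, 0 with voom and 1 to 27 with a library left out. The 27 genes of cisplatin against vehicle numbered 13 with a pseudocount of 0.1, 7 without a filter, 45 at a mean FPKM of at least 5, 10 without ribosomal RNA-like features, 11 with equal totals, 14 with median-of-ratios scaling, 16 with quantile scaling, 5 without the trend, 335 with sample weights, 14, 5 and 8 with the muscle, adipocyte and both scores, 0 with the replicate block, 0 with voom and 0 to 100 with a library left out. The causes were not tested.

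Sign changes were seen only in genes that did not pass the test between combination and brivanib. With equal FPKM totals, log2 fold changes became 0.18 for Ercc1, 0.0008 for Flt1, 0.26 for Irf3, 0.10 for Lrrc8d, 0.25 for Mki67 and 0.031 for Pdgfra. With both scores they became -0.13 for Chek1, -0.27 for Gzmb, 0.0098 for Lrrc8d, -0.0934 for Mdm2, 0.25 for Mki67 and -0.0712 for Tmem173. With the muscle score they became -0.12 for Cd274, -0.56 for Gzmb and 0.22 for Mki67, and with the adipocyte score -0.0454 for Cxcl10 and -0.0222 for Tmem173. With sample weights Cd274 was at -0.0403 and Irf3 at 0.14. With the replicate block Gzmb was at -0.0111, Lrrc8d at 0.0632 and Mki67 at 0.0542. Median-of-ratios and quantile scaling gave -0.0163 and -0.0136 for Cxcl10 and -0.0049 and -0.0273 for Tmem173. With 1 library left out the ranges that crossed 0 were Cd274 -0.16 to 0.24, Chek1 -0.0452 to 0.19, Cxcl10 -0.19 to 0.28, Flt1 -0.42 to 0.0038, Gzmb -0.21 to 0.67, Irf3 -0.13 to 0.059, Irf7 -0.0155 to 0.47, Lrrc8d -0.47 to 0.0494, Mki67 -0.25 to 0.0788 and Tmem173 -0.0337 to 0.12. The medians of lists with few calls, such as the clock, T cell and TGF-beta lists, also changed sign under some settings.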

Other observations

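The genes in the next sentences were chosen one by one after their values were seen, and stand for no group. Mest, a hydrolase-like gene, was at 1.26, 0.577 and 1.61 FPKM in combination 2, 3 and 4, against 8.07, 16.6 and 7.29 FPKM in brivanib 2, 3 and 5 (log2 fold change -2.38 ± 0.31, SE, adjusted p = 0.00372 by limma). The growth receptor adaptor Grb10 was at 1.78, 1.09 and 1.55 FPKM in the combination and at 4.58, 5.08 and 4.69 FPKM with brivanib (-1.23 ± 0.16, adjusted p = 0.00372). Both passed without each of the 12 libraries in turn. Mest was at 4.26, 8.18 and 7.01 FPKM with cisplatin and at 6.997, 8.19 and 10.4 FPKM with vehicle. Grb10 was at 1.695, 1.61 and 1.87 FPKM with cisplatin and at 1.78, 2.11 and 2.63 FPKM with vehicle. The brivanib libraries thus overlapped vehicle for Mest and lay above it for Grb10.

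Ptgs1, the cyclooxygenase that starts prostaglandin synthesis in many resting cells, was at 55.7, 71.2 and 62.8 FPKM in the combination and at 28.1, 27.9 and 22.04 FPKM with brivanib (1.25 ± 0.15, adjusted p = 0.0025 by limma), and passed without each library in turn. It was at 62.7, 44.5 and 61.7 FPKM with cisplatin and at 26.7, 29.6 and 28.8 FPKM with vehicle.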
